A study of Mus musculus with 35 samples.

Results

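The proteins of the mitochondrial ribosome were followed at the level of mRNA in OT-I CTLs, which are cytotoxic CD8+ T cells from mice whose T cells carry a transgenic receptor for an ovalbumin peptide. The group holds every protein-coding gene with a symbol made of Mrpl (large subunit) or Mrps (small subunit) and a number, and the symbols alone chose the members. It has 78 of the 48709 genes counted, of which the symbol places 49 in the large and 29 in the small subunit. The CTLs had been activated with anti-CD3 and anti-CD28 antibodies, expanded in IL-2, and then kept for 24 h in medium of pH 7.4, 7 or 6.6 that held murine IL-2 at 200 IU/mL or lacked it. With cells taken at 0 h this gave 7 groups of 5 biological replicates, or 35 libraries.

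The mitochondrial ribosome, or mitoribosome, translates the few mRNAs that are transcribed from mitochondrial DNA, all of which encode membrane subunits of the respiratory chain and of ATP synthase. Its RNAs come from mitochondrial DNA, whereas its proteins are encoded in the nucleus, made in the cytosol and imported. Many of its proteins have counterparts in the bacterial ribosome, and others are found only in mitochondria. Mitochondrial translation is known to be needed for the proliferation and cytotoxic activity of T cells. A few symbols of the group are wider than their names: Mrps18a and Mrps30 lie in the large subunit of the assembled particle, Mrpl58 is also a peptidyl-tRNA hydrolase, and Mrps36 is known as a component of the 2-oxoglutarate dehydrogenase complex.

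Libraries held between 16721319 and 34033340 reads counted on genes (median 24730020), of which the members took between 0.2185% and 0.4011%. A library at 0 h, replicate 5, stood apart from the other 0 h libraries: its summed level of the members was 4121 CPM (read counts scaled to a common library size by the TMM method) against 2781 to 3134, its cytosolic ribosomal proteins were at 81228 CPM, the highest of the 35 libraries, and 48.3% of its reads aligned to several places. Results at 0 h are therefore given with and without it. The defining CD8 T cell marker Cd8a lay at group means of 719 to 1402 CPM, while the summed markers of B cells, CD4 T cells, myeloid cells and erythroid cells reached at most 6.1, 5.5, 3.98 and 0.274 CPM in any library. Cd3d, Cd3e, Cd3g and Cd8b1 had mean log2 CPM of 8.59, 8.93, 9.3 and 8.27. Their log2 fold changes with IL-2 against none at pH 7 were -0.43, 0.08, -0.2 and -0.29, against 0.51 for Cd8a. At pH 6.6 these IL-2 responses were -0.07, -0.03, 0.14 and 0.19, against 0.54 for Cd8a, so the T cell markers did not move as 1. Granzyme B mRNA (Gzmb), an effector product of CTLs, fell under acid in cells given IL-2, as most members did. It was at 7796 ± 935 CPM at pH 7.4 with IL-2 and 845 ± 323 CPM at pH 6.6 with IL-2 (SD, n = 5). In the absence of IL-2, Gzmb was at 124 ± 52.1 CPM at pH 7.4 (SD, n = 5). Unlike most members, Gzmb kept a large IL-2 response at pH 6.6 (log2 fold change 3.24, standard error 0.18). Only 11 of 77 tested members passed the threshold for IL-2 there. What part a change of effector state had in the levels below was not tested. In bulk RNA, fewer cells of a kind and less RNA per cell cannot be told apart.

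The promoters of the members were examined first, since many of the genes moved together. RefSeq start sites (GRCm38.p6) matched 69 of the 78 members, with 75 windows of 250 bases before a start. Letters associated with regulators of nuclear genes for mitochondrial proteins were searched on both strands, and no matches of different motifs overlapped in these windows. The ETS letters CCGGAAG, as bound by GABPA and other ETS factors, were in 24.0% of the members' windows and in 6.91% of all 32851 windows. The NRF1 motif, a GC-rich palindrome, was in 13.3% against 3.74%, the E-box CACGTG, as bound by Myc, in 9.33% against 6.02%, and the YY1 letters ATGGCGG in 1.33% against 2.21%. Of the 57 genes with a window whose level was lower under IL-2 at pH 6.6 compared with pH 7.4, 15 held the ETS letters, 5 the NRF1 motif and 5 the E-box. Of the 11 other tested genes with a window, 2 held the ETS letters, 5 the NRF1 motif and 0 the E-box. These are matches of letters, counted with the expression values known, and no test was made of the shares. The windows of all genes include genes too low in these cells to be tested, so the shares do not compare the members with expressed genes alone.

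The following 6 windows are shown because they carry these letters in members that, at pH 6.6 with IL-2, rose (Mrpl9, Mrpl30), gave no call (Mrpl44) or fell (Mrpl12, Mrpl17, Mrpl20). They run 5′ to 3′ and end at the RefSeq start, and capitals mark the NRF1 motif, for Mrpl17 also the ETS letters near the far end, and for Mrpl20 the E-box.
Mrpl9, chr3:94443086-94443335, plus strand: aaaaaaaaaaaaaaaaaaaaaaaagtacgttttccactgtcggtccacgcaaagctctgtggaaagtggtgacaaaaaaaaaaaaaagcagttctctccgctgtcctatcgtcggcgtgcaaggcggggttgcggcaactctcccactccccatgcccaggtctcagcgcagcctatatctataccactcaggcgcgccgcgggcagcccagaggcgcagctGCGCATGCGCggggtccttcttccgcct
Mrpl30, chr1:37890227-37890476, plus strand: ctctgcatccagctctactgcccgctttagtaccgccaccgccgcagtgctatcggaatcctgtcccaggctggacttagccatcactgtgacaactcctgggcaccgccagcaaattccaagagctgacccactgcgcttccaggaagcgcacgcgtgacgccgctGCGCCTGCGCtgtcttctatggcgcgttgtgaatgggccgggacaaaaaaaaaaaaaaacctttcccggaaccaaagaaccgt
Mrpl44, chr1:79775768-79776017, plus strand: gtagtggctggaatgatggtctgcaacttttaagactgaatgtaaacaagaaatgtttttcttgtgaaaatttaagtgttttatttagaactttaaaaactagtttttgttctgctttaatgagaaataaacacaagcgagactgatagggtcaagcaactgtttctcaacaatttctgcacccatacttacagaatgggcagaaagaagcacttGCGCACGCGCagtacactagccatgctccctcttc
Mrpl12, chr11:120484387-120484636, plus strand: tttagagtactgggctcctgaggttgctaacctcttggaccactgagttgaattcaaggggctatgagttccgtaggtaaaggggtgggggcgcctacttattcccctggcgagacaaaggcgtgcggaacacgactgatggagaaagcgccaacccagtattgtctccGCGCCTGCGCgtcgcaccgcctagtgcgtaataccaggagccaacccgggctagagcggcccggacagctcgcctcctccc
Mrpl17, chr7:105811088-105811337, minus strand: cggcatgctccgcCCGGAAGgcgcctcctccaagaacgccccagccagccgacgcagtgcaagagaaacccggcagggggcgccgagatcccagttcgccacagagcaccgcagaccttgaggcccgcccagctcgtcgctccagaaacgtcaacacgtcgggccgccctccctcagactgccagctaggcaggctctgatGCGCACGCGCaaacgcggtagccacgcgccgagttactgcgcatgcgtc
Mrpl20, chr4:155802628-155802877, plus strand: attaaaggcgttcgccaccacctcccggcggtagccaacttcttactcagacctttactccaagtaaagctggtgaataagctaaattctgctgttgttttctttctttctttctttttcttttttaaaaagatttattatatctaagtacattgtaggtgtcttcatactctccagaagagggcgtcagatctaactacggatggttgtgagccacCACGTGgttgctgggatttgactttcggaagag
The NRF1 motif began 28 bases before the start of Mrpl9, 83 before that of Mrpl30, 35 before that of Mrpl44, 81 before that of Mrpl12 and 49 before that of Mrpl17. The E-box of Mrpl20 began 33 bases before its start.

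With IL-2 present, low pH took most members down together to about the level of cells that had no IL-2. The summed level of the members was 3596, 3542, 3668, 3772 and 4257 CPM in the 5 libraries at pH 7.4 with IL-2. At pH 7 with IL-2 it was 3133, 3041, 3017, 3302 and 3244 CPM. At pH 6.6 with IL-2 it was 2312, 2292, 2370, 2416 and 2482 CPM. These 3 groups did not overlap, and the level was lower at each step of pH. Without IL-2 the sum was 2066 to 2397 CPM at pH 7.4, 2072 to 2319 at pH 7 and 2344 to 2645 at pH 6.6, so the libraries at pH 6.6 with IL-2 lay in the range of libraries without the cytokine. The share of reads outside genes moved with the same groups, at 3.91% to 5.18% at pH 7.4, 5.05% to 5.95% at pH 7 and 7.34% to 8.83% at pH 6.6 with IL-2, against 6.47% to 11.1% without IL-2, and its part in the levels was not tested. Of the 77 members tested, 59 had their highest group mean at pH 7.4 with IL-2. The same count was not made for all genes, so it cannot show whether the members differ from genes in general.

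**Figure D1:**
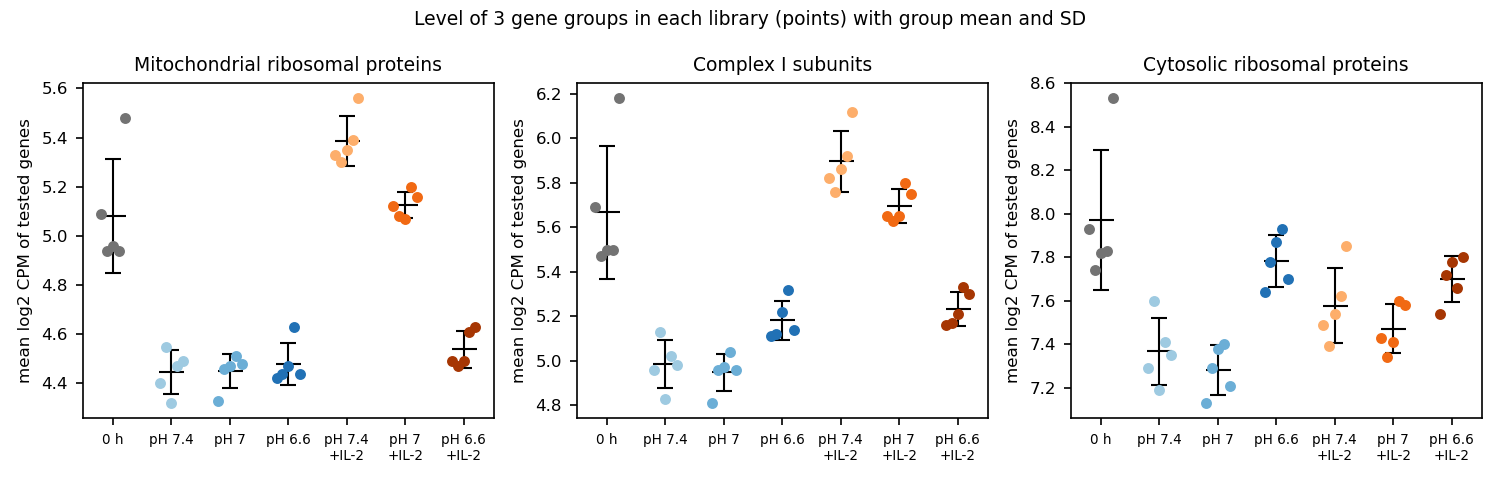
Mean log2 CPM over the tested genes of each group of proteins (vertical axes, which do not start at 0) in each library (points, replicates 1 to 5 from left to right), with the mean and SD of the 5 replicates. The mitochondrial ribosomal proteins fell from 5.39 at pH 7.4 to 4.54 at pH 6.6 with IL-2 and lay at 4.45 at pH 7.4 without IL-2, and the libraries with IL-2 are lowest at pH 6.6 for complex I but not for the cytosolic ribosomal proteins.

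The first comparison asks what low pH does to IL-2-stimulated CTLs. Relative to pH 7.4, at pH 6.6 with IL-2, 64 of the 77 tested members fell, 4 rose and 9 gave no call (edgeR's quasi-likelihood test, adjusted p below 0.05), against 40.9% of all 13819 tested genes that fell and 35.4% that rose (76.3% in either direction). The count of members that rose was 1 without the filter on low counts, without the replicate numbers as a block in the fit, without replicate 3 or without replicate 4. The median log2 fold change was -0.96 over the members and -0.07 over all genes tested. In 64 members the 5 libraries at pH 6.6 did not overlap with those at pH 7.4, which held for 59.2% of all genes. With subunits taken from the symbols, the median was -0.98 for the 48 tested large subunit genes (38 lower, 3 higher). It was -0.96 for the 29 small subunit genes (26 lower, 1 higher). The members were also split by symbol number, which is only a rough guide to origin and does not place every protein correctly. Of the 44 with numbers up to those of Mrpl36 or Mrps21, 36 were lower and 4 higher (median -0.97). Of the 33 tested with higher numbers, 28 were lower and 0 higher (median -0.83), a difference that was not tested. Over the 38 members whose exons overlap no other gene and whose 50-base windows are at least 95% unique, 31 fell and 3 rose, with a median of -0.96.

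**Figure D2:**
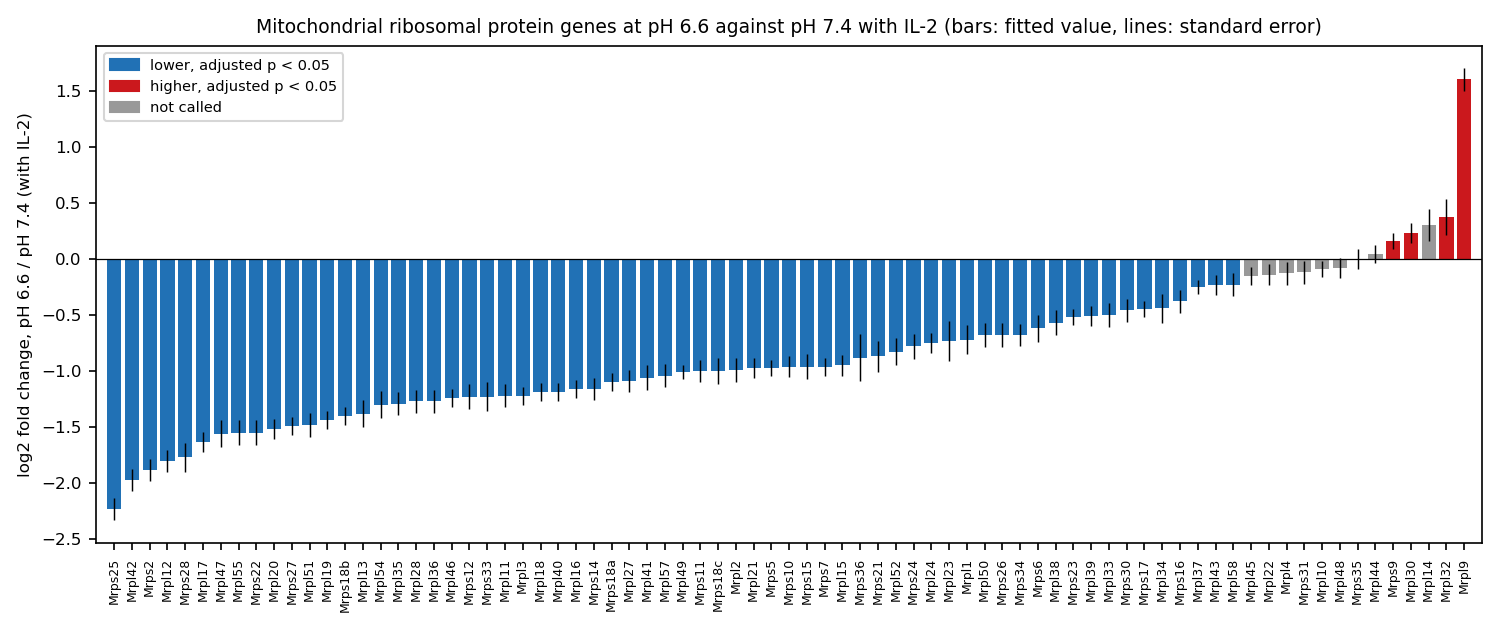
Fitted log2 fold change with IL-2, pH 6.6 over pH 7.4 (vertical axis) for each of the 77 tested members, ordered by size, with the standard error. The values run from -2.23 for Mrps25 to 1.6 for Mrpl9, and 64 bars are called lower, 4 higher and 9 neither.

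Among the members that fell furthest, Mrpl12 encodes the stalk protein of the large subunit that contacts translation factors (chromosome 11, 120484613 to 120489065, plus strand, GRCm38). Its level was 101, 99.6, 92.7, 111 and 120.0 CPM at pH 7.4 with IL-2 and 28.7, 26.3, 24.0, 36.2 and 35.2 CPM at pH 6.6 with IL-2. Every library at pH 6.6 was below every library at pH 7.4, and those at pH 7 lay between, at 73.2 to 82.1 CPM. The log2 fold change at pH 6.6 was -1.80 (standard error 0.10, adjusted p = 3.55e-17, lower in 5 of 5 pairs). An annotated gene on the opposite strand, Gm16755, covers 13.1% of its exon bases.

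Mrpl42, a mitochondria-specific protein of the large subunit (chromosome 10, 95480805 to 95501940, minus strand), went from 66.6, 73.4, 74.0, 72.9 and 82.6 CPM at pH 7.4 to 17.9, 17, 16.6, 21.4 and 21.7 CPM at pH 6.6 with IL-2. Its libraries at pH 6.6 overlapped with those at pH 7.4 without IL-2, which lay at 15.6 to 20.9 CPM. The fall was -1.97 on the log2 scale (standard error 0.10, adjusted p = 3.78e-18). Mrpl17, a bacterial-type protein of the same subunit, went from 48.0 to 62.0 CPM over the libraries at pH 7.4 down to 13.1 to 22 CPM, at a log2 fold change of -1.63 (standard error 0.09, adjusted p = 1.69e-16).

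In the small subunit, Mrps2, the counterpart of bacterial S2 (chromosome 2, 28468066 to 28471178, plus strand), was at 62.3, 59.1, 61.1, 60.9 and 63.7 CPM at pH 7.4 with IL-2, whereas low pH left 19.8, 14, 13.4, 18.7 and 18.2 CPM. The spread between replicates was small beside this step, and the change was -1.88 on the log2 scale (standard error 0.10, adjusted p = 1.77e-17). Mrps25, which is specific to mitochondria, went from 29.3 to 44.4 CPM down to 5.72 to 9.87 CPM over the 5 libraries of each group (log2 fold change -2.23, standard error 0.10, adjusted p = 9.61e-19). The level of Mrps25 is uncertain, because 69.8% of its exon bases lie opposite exons of Nr2c2 and the strand setting of the counting is not given in the sources used here.

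Mrps28, another small subunit protein (chromosome 3, 8802146 to 8923918, minus strand), was at 16.5, 17, 16.6, 17.7 and 18.7 CPM at pH 7.4 with IL-2. It reached 3.70, 5.12, 4.28, 6.04 and 6.45 CPM at pH 6.6 with IL-2 (log2 fold change -1.77, standard error 0.13, adjusted p = 4.53e-14). Without IL-2 it had only 1.74 to 3.34 CPM at pH 7.4. The fall at pH 6.6 thus left Mrps28 above the level of pH 7.4 without IL-2 (log2 fold change 1.19, standard error 0.14, adjusted p = 1.65e-08), where no library overlapped.

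The paralogs Mrps18a, Mrps18b and Mrps18c, versions of bacterial S18 that occupy different places in the mitoribosome, all fell. Mrps18a was at 37.3 ± 2.28 CPM at pH 7.4 and 17.4 ± 2.06 CPM at pH 6.6 with IL-2 (SD, n = 5; log2 fold change -1.1, standard error 0.08, adjusted p = 1.98e-14). For Mrps18b the step was from 29.4 ± 1.40 down to 11.2 ± 1.19 CPM (SD, n = 5; -1.4, standard error 0.08, adjusted p = 2.75e-16), and for Mrps18c from 33.3 ± 3.28 down to 16.7 ± 1.45 CPM (SD, n = 5; -1.0, standard error 0.12, adjusted p = 8.81e-09). The unique share of 50-base windows was 100% for Mrps18a, 85.4% for Mrps18b and 80.8% for Mrps18c, and Gm16279 lies opposite 30.5% of the exon bases of Mrps18b.

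Mrpl9 ran against the group. It encodes the counterpart of bacterial L9, a protein of the large subunit (chromosome 3, 94443318 to 94451130, plus strand), and per kilobase of exon it had the highest mean level of all members over the 35 libraries, 50.2 CPM per kb. It was at 61.4, 59.1, 61.2, 65.7 and 69.0 CPM at pH 7.4 with IL-2. At pH 6.6 with IL-2 it was at 180.0, 204, 219, 168 and 185 CPM, so that every library was above every one at pH 7.4. That is a log2 fold change of 1.6 (standard error 0.10, adjusted p = 4.49e-16). The highest levels were at pH 6.6 without IL-2, at 246 to 273 CPM, and those at pH 7.4 without IL-2 were 131 to 156 CPM. Mrpl9 was therefore high where the other members were low: its correlation with the mean log2 CPM of the other members was -0.82 over the 35 libraries, which share 7 groups, against a median of 0.90 over the members. Oaz3 on the opposite strand overlaps 5.8% of its exon bases.

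The other rises were small. Mrpl32, a large subunit protein whose precursor is matured by a mitochondrial protease, was at 45.9, 43.5, 50.5, 49.3 and 65.4 CPM at pH 7.4 and 60.2, 63.5, 77.7, 57.6 and 66.5 CPM at pH 6.6 with IL-2, and the groups overlapped (log2 fold change 0.37, standard error 0.16, adjusted p = 0.0321). Mrpl30 was at 97.6 to 138 CPM and 121 to 143 CPM (0.23, standard error 0.09, adjusted p = 0.0268). Mrps9, which falls outside the naming rule because 4 of 5 pairs rose and is named after its value was seen, had a log2 fold change of 0.16 (standard error 0.07, adjusted p = 0.0328). None of these 3 calls held without the filter on low counts, without the block of replicates, without replicate 3 or without replicate 4, and in each of these fits Mrpl9 was the 1 member called higher.

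The members without a call were Mrpl10, Mrpl14, Mrpl22, Mrpl4, Mrpl44, Mrpl45, Mrpl48, Mrps31 and Mrps35. Mrpl10 encodes the base of the stalk to which Mrpl12 binds, and unlike Mrpl12 it was at 87.7 to 97.2 CPM at pH 7.4 and 84.7 to 92.5 CPM at pH 6.6 with IL-2. Its log2 fold change was -0.09 with a 95% confidence interval of -0.22 to 0.03. For Mrps35 the interval was -0.19 to 0.18, for Mrpl44 -0.12 to 0.21, for Mrpl48 -0.25 to 0.09, for Mrps31 -0.32 to 0.07 and for Mrpl4 -0.32 to 0.06. These members were picked for the smallest changes in this same comparison. That each interval lies above -0.96, the median of the members, therefore follows largely from that choice. With subunits taken from the symbols, the ratio of the large to the small subunit sum was 2.07 to 2.13 at pH 7.4 and 2.29 to 2.44 at pH 6.6 with IL-2. This step came from Mrpl9: with that gene left out the ratio was 2.02 to 2.08 and 2.05 to 2.12, and the groups overlapped.

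**Figure D3:**
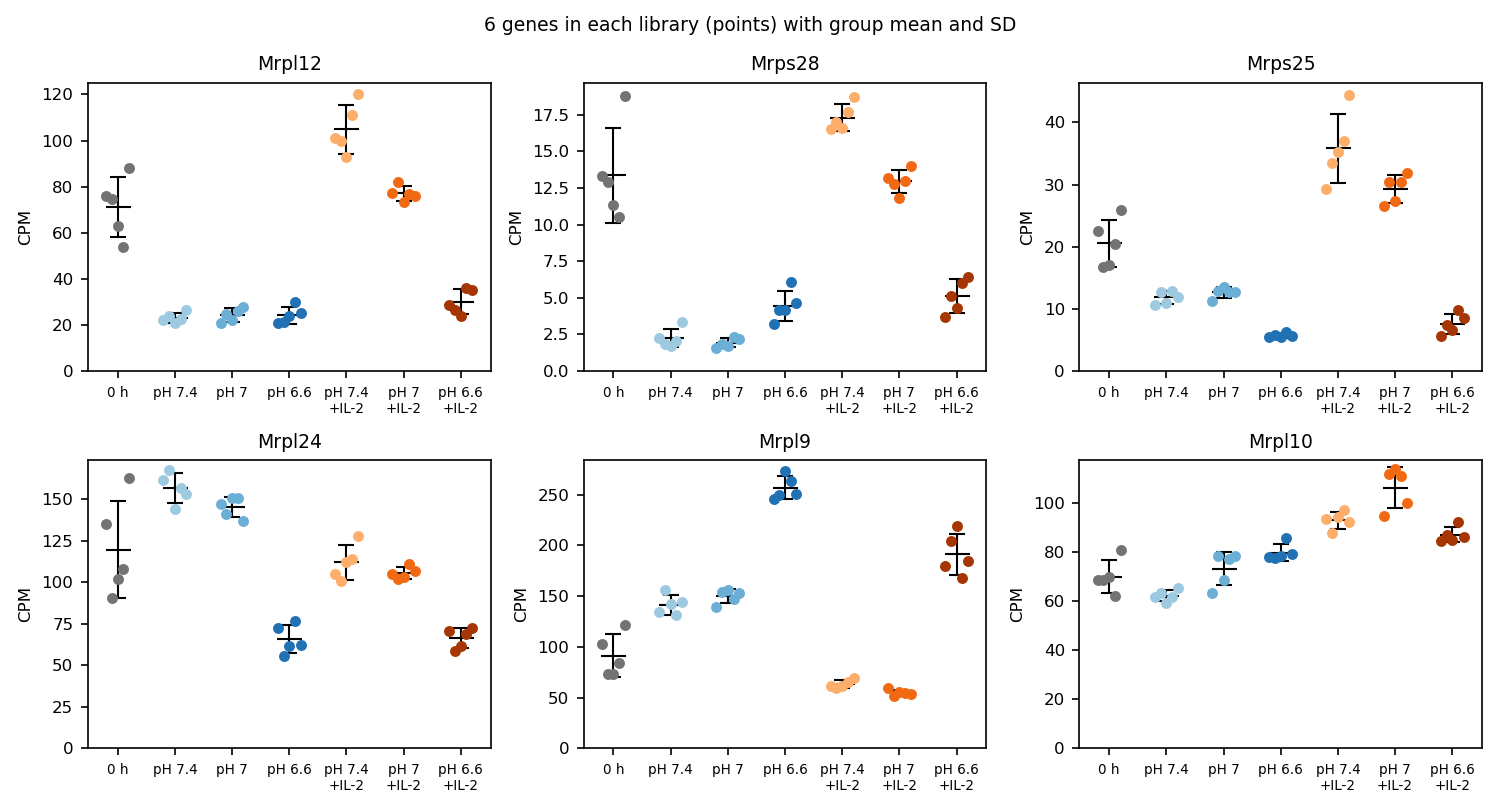
CPM (vertical axes, from 0) of 6 members in each library (points, replicates 1 to 5 from left to right) with the mean and SD of the 5 replicates. Mrpl12, Mrps28 and Mrps25 were highest at pH 7.4 with IL-2 and low at pH 6.6, Mrpl24 fell at pH 6.6 with and without IL-2, Mrpl9 was highest at pH 6.6, and Mrpl10 stayed within 84.7 to 97.2 CPM at pH 7.4 and pH 6.6 with IL-2.

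At pH 7 with IL-2 the fall was smaller. Of the 77 members, 38 were lower than at pH 7.4, 1 was higher and 38 gave no call, against 9.83% of all genes that were lower, 9.15% that were higher and 19% called in either direction. The median log2 fold change was -0.27, and -0.01 over all genes. Of the 64 members that fell at pH 6.6, 37 also fell at pH 7, in a comparison that shares the libraries at pH 7.4. The falls were led by Mrps18b (-0.54, standard error 0.08, adjusted p = 1.78e-05), Mrpl20 (-0.48, standard error 0.08) and Mrpl54 (-0.45, standard error 0.11), the last 2 named after their values were seen. Mrpl10 was the member that rose, from 87.7 to 97.2 CPM up to 95 to 114 CPM (0.19, standard error 0.07, adjusted p = 0.036). The count of 39 calls was 22 without replicate 2 and 18 without replicate 3. Over all genes the calls went from 2623 to 1374 and 1283 in these fits.

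Without IL-2, the effect of pH 6.6 on the members was mixed. Of the 77 members, 24 were higher than at pH 7.4, 15 lower and 38 without a call, in a comparison where 31.6% of all genes were higher, 35.4% lower and 67.0% called. The median log2 fold change was 0.08. Mrps28 rose from 2.26, 1.88, 1.74, 2.04 and 3.34 CPM to 3.2, 4.18, 4.18, 6.06 and 4.65 CPM (log2 fold change 0.99, standard error 0.15, adjusted p = 4.99e-07), with 1 library at pH 6.6 below the highest at pH 7.4. Mrpl9 rose here too, by 0.86 (standard error 0.09, adjusted p = 1.71e-09), as did Mrpl22, which lines the exit tunnel for the nascent chain (0.71, standard error 0.09), and Mrpl32 (0.70, standard error 0.16). Only 77.6% of the 50-base windows of Mrpl22 were unique.

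Members that fell at pH 6.6 without IL-2 included Mrpl24, a bacterial-type protein of the large subunit, which went from 162, 168, 144, 157 and 153 CPM to 72.3, 55.9, 61.5, 77.0 and 62.2 CPM. The groups did not overlap, and the change was -1.26 on the log2 scale (standard error 0.09, adjusted p = 4.45e-13). With IL-2 it fell less, by 0.75 on the log2 scale (standard error 0.09), and the interaction passed the threshold (0.50, standard error 0.13, adjusted p = 0.00125). Exons of Rrnad1 lie opposite 26.3% of its exon bases. Mrps25 (-1.04, standard error 0.11), Mrps2 (-1.04, standard error 0.10) and Mrpl36 (-0.73, standard error 0.10) fell as well, each in 5 of 5 pairs. Mrpl23, whose bacterial counterpart sits at the mouth of the exit tunnel, fell from 2.29 to 3.64 CPM down to 0.909 to 1.47 CPM (-1.22, standard error 0.19, adjusted p = 1.43e-06). It had the lowest level of the tested members, 0.552 CPM per kb. For pH 7 in cells without IL-2, 0 of 77 members and 1.68% of all genes were called (1.36% higher and 0.318% lower). There, 1 member had an unadjusted p below 0.05, and DESeq2 called 1 member and 306 of 13551 genes.

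**Figure D4:**
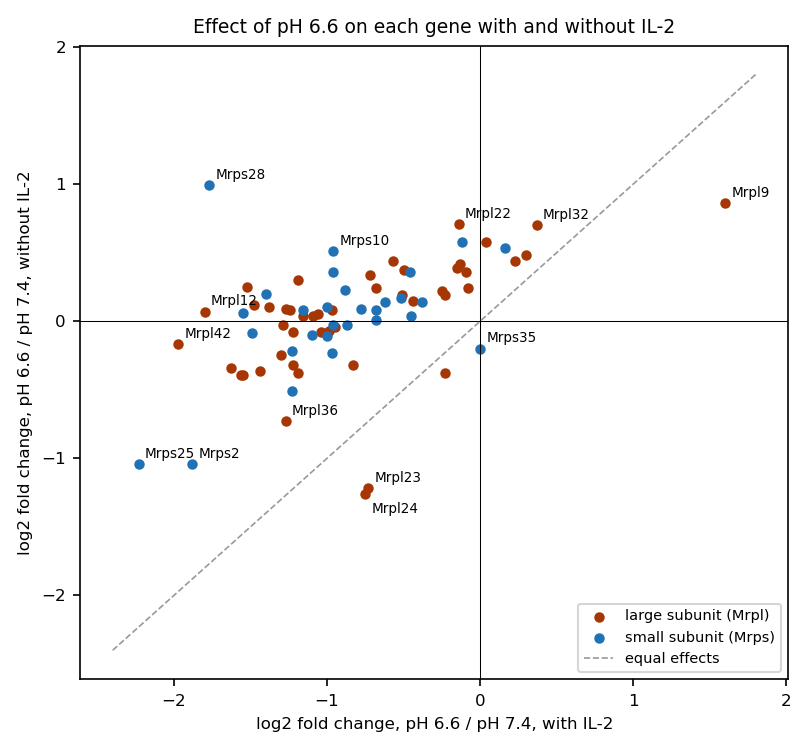
Log2 fold change of pH 6.6 over pH 7.4 in cells with IL-2 (horizontal axis) and in cells lacking it (vertical axis) for the 77 tested members, by subunit as given by the symbol, with a dashed line of equal effects. 72 members lie above the line, with Mrps28 furthest from it, and the members that fell on both axes include Mrps25, Mrps2, Mrpl36, Mrpl24 and Mrpl23.

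Whether low pH acted differently on cells with and without IL-2 was tested as an interaction. It was negative and past the threshold for 69 members, positive for 2 and without a call for 6, where 32.8% of all genes were negative, 34.3% positive and 67.0% called in all. The median interaction was -0.92 for the members and 0.04 for all genes. It was largest for Mrps28 (-2.76, standard error 0.19, adjusted p = 4.74e-14), Mrpl12 (-1.87, standard error 0.14, adjusted p = 1.79e-13) and Mrpl42 (-1.80, standard error 0.14, adjusted p = 3.91e-13) among the named members. Mrpl9 (0.74, standard error 0.13, adjusted p = 1.28e-05) and Mrpl24 were the members with a positive interaction. Across the 77 members, the 2 effects of low pH, which share no library, had a correlation of 0.52, given as a description across genes of the same libraries.

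At pH 7.4, most members were higher with IL-2 than without it. The cells had been expanded in IL-2, so those without it had 24 h of withdrawal, and changes from 0 h are given below. Of the 77, 68 were higher with IL-2, 3 lower and 6 without a call, where 39.3% of all genes were higher, 41.1% lower and 80.4% called. The median log2 fold change was 0.96. The largest positive differences were those of Mrps28 (2.95, standard error 0.14), Mrpl12 (2.18, standard error 0.10), Mrpl42 (2.03, standard error 0.10) and Mrpl51 (1.79, standard error 0.11). Mrpl51, a mitochondria-specific large subunit protein, was at 14.3 to 17.5 CPM without IL-2 and 46.0 to 68.0 CPM with it. Mrpl9 (-1.16, standard error 0.10), Mrpl24 (-0.49, standard error 0.09) and Mrps35 (-0.31, standard error 0.09) were lower with IL-2. At pH 7, 64 members were higher with IL-2 and 4 lower (37.6% of all genes higher, 39.5% lower and 77.2% called), with a median of 0.69.

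At pH 6.6, few members responded to IL-2. Of the 77, 8 were higher with IL-2, 3 lower and 66 without a call, in a comparison with 13.2% of all genes higher, 10.6% lower and 23.7% called, and the median was 0.05. Of the 68 members that were higher with IL-2 at pH 7.4, 7 were also higher at pH 6.6, 2 were lower and 59 had no call. The response of Mrps28 at pH 6.6 was 0.20 with a 95% confidence interval of -0.07 to 0.46, and that of Mrpl42 was 0.22 with an interval of 0.03 to 0.42 (adjusted p = 0.1). Among the members with a call, Mrpl23 (0.61, standard error 0.20), Mrps2 (0.59, standard error 0.10), Mrpl17 (0.42, standard error 0.10) and Mrps25 (0.40, standard error 0.11) were higher with IL-2, and Mrpl9 (-0.43, standard error 0.09) and Mrpl44 (-0.31, standard error 0.08) were lower. The count of 11 calls was 7 without replicate 1, 3, 4 or 5, and 23 when the groups compared were fitted alone. Over all genes the calls went from 3278 to between 2119 and 2630 without these replicates, and to 5369 of 12514 with the groups fitted alone. Cells at pH 6.6 with IL-2 against cells at pH 7.4 without it gave 25 members higher, 12 lower and 40 without a call (30.4% of all genes higher, 34.1% lower and 64.4% called), with a median of 0.12.

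Relative to 0 h, more members were called higher than lower at pH 7.4 with IL-2, and most were lower at pH 7.4 without IL-2 and at pH 6.6 with it. At pH 7.4 with IL-2, 46 members were higher than at 0 h, 3 lower and 28 without a call (29% of all genes higher, 30.9% lower and 59.9% called, median 0.29). Without the 0 h library of replicate 5, 61 were higher and 3 lower, with a median of 0.40. At pH 7.4 without IL-2, 68 were lower and 2 higher (38.3% of all genes lower, 36.9% higher and 75.2% called, median -0.61), or 63 lower and 4 higher with a median of -0.52 without that library. At pH 6.6 with IL-2, 64 were lower and 4 higher (38.0% of all genes lower, 30.5% higher and 68.5% called, median -0.58), or 54 lower and 6 higher with a median of -0.47. Mrpl42 was higher at pH 7.4 with IL-2 than at 0 h by 1.03 (standard error 0.09), and Mrps28 lower without IL-2 by a log2 fold change of -2.57 (standard error 0.14). Mrpl9 went the other way in each, at -0.52, 0.64 and 1.08 in these comparisons (standard errors 0.10, 0.09 and 0.10).

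Cytosolic ribosomal proteins, which build the ribosomes of the cytosol, gave other counts and medians. At pH 6.6 with IL-2, 42 of their 81 tested genes were higher and 17 lower (median 0.32), and without IL-2, 56 were higher and 2 lower (median 0.43). Of all genes tested, 35.4% were higher and 40.9% lower with IL-2, and 31.6% were higher and 35.4% lower without it. The summed level of mitochondrial over cytosolic ribosomal proteins was 0.102, 0.104, 0.0995, 0.0962 and 0.0903 at pH 7.4 with IL-2 and 0.0511, 0.0434, 0.0459, 0.0493 and 0.0469 at pH 6.6 with IL-2. The 2 groups did not overlap, and this ratio was 0.0522 to 0.0590 at pH 7.4 without IL-2. Cytosolic ribosomal protein genes have many near-identical copies, whose reads were not counted when they aligned to several places. Nuclear subunits of respiratory complex I, several partners of which are made by the mitoribosome, also fell at pH 6.6 with IL-2, with 32 of 36 tested genes lower and 1 higher (median -0.61). At pH 7.4, 35 of these genes were higher with IL-2 than without it (median 0.82), against 39.3% of all genes.

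Other parts of the mitochondrial translation system were lower at pH 6.6 with IL-2 in most lists, but less evenly. In this comparison 40.9% of all genes tested were lower, 35.4% higher and 76.3% called in either direction. The counts of the lists were not tested against these shares. Mitoribosomal proteins known by other symbols fell in 4 of 5 cases (median -0.64), among them Chchd1 (-1.07, standard error 0.14), Ptcd3 (-1.06, standard error 0.08) and Gadd45gip1 (-0.64, standard error 0.11). Of 26 assembly factors, 15 were lower and 5 higher (median -0.40). C1qbp, a matrix protein needed for mitochondrial translation, went from 252 ± 21.2 to 52.3 ± 9.0 CPM (SD, n = 5; log2 fold change -2.28, standard error 0.10, adjusted p = 2.67e-19), and the RNA-binding protein Fastkd2 (-2.10, standard error 0.12) and the GTPase Noa1 (-1.67, standard error 0.09) fell as well. Without IL-2, Fastkd2 (-1.19, standard error 0.12) and Noa1 (-1.11, standard error 0.09) again fell at pH 6.6, while the value for C1qbp was 0.14 (standard error 0.10, adjusted p = 0.226).

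Of 13 translation factors, 8 were lower and 3 higher (median -0.37), led by the elongation factor Tsfm (-1.30, standard error 0.09), the recycling factor Mrrf (-1.22, standard error 0.11) and the elongation factor Gfm1 (-0.99, standard error 0.07). Of 17 mitochondrial tRNA synthetases, 13 were lower and 1 higher (median -0.79). The synthetase Nars2 (-1.43, standard error 0.12) fell, whereas Fars2, which charges the phenylalanine tRNA, rose from 12.9 ± 0.845 to 35.1 ± 2.55 CPM (SD, n = 5; log2 fold change 1.44, standard error 0.09, adjusted p = 2.96e-15). Fars2 resembled Mrpl9 in that it was also higher at pH 6.6 without IL-2 (0.84, standard error 0.09) and lower with IL-2 at pH 7.4 (-1.02, standard error 0.09).

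In the list for mitochondrial DNA and RNA maintenance, 14 of 19 genes were lower and 3 higher at pH 6.6 with IL-2 (median -0.85). Lrpprc, which stabilizes mitochondrial mRNAs, went from 153 ± 16 to 49.8 ± 8.60 CPM (SD, n = 5; log2 fold change -1.63, standard error 0.10, adjusted p = 5.44e-16), and Fastkd1 fell too (-1.58, standard error 0.11). Polg2, the accessory subunit of the mitochondrial DNA polymerase, rose from 6.28 ± 1.01 to 26.6 ± 3.55 CPM (SD, n = 5; 2.09, standard error 0.13, adjusted p = 7.88e-16). For the mRNAs that the mitoribosome translates, reads aligned to several places were likewise not counted, and what this did to their levels was not tested. Of these mRNAs, 7 of 13 could be tested. At pH 6.6, 6 were lower with IL-2 (median -1.76, 40.9% of all genes lower) and 7 without IL-2 (median -1.70, 35.4% of all genes lower). Their summed level changed less, from 17303 ± 3645 to 10147 ± 1141 CPM with IL-2 and from 16585 ± 2626 to 9129 ± 1718 CPM without it (SD, n = 5). The most abundant of them, mt-Co1, which encodes a core subunit of cytochrome c oxidase, gave no call with IL-2 (log2 fold change -0.06, standard error 0.13) and a smaller fall without it (-0.38, standard error 0.13). The complex I mRNA mt-Nd1 was at 3126 ± 822 CPM at pH 7.4 and 593 ± 59.4 CPM at pH 6.6 with IL-2 (SD, n = 5), and at 1399 ± 319 and 362 ± 61.3 CPM without IL-2. Its log2 fold change was -2.38 (standard error 0.14) with and -1.94 (standard error 0.14) without IL-2, and those of mt-Nd2 were -2.20 and -1.91 (standard error 0.15 each).

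**Figure D5:**
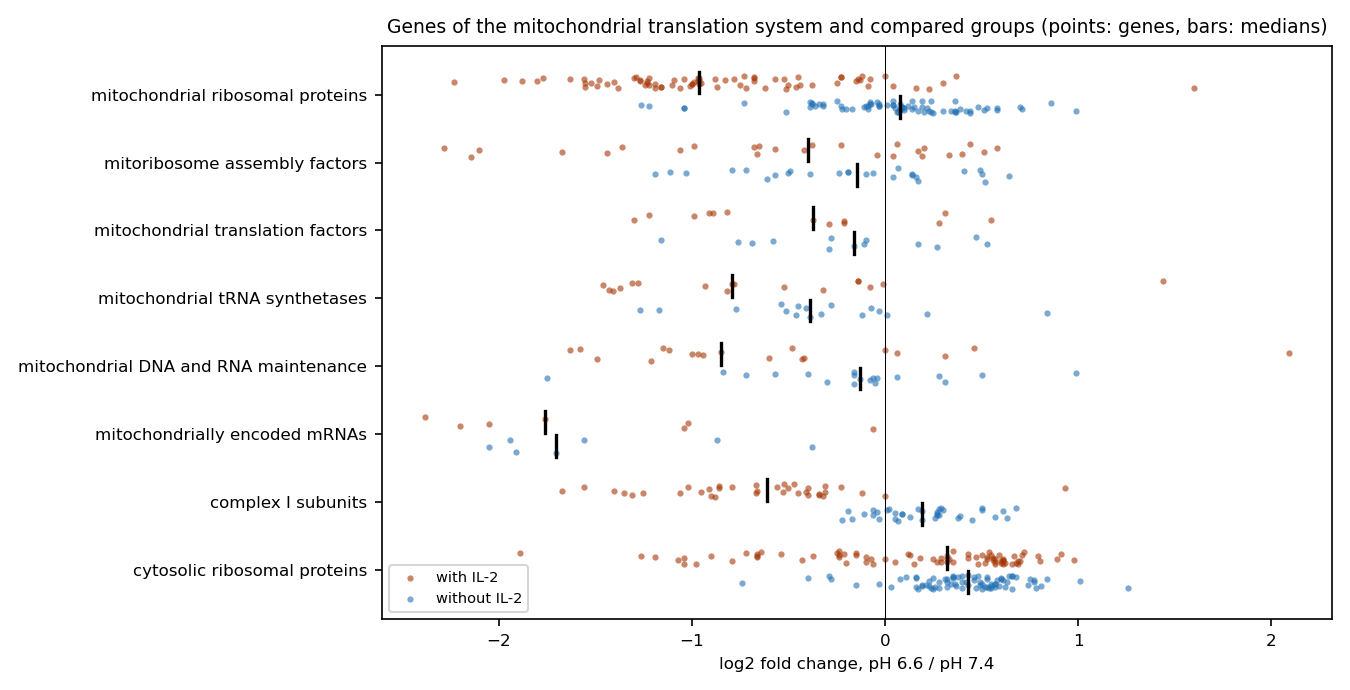
Log2 fold change of pH 6.6 over pH 7.4 (horizontal axis) of every tested gene (points, with a random vertical offset) in 8 gene groups, with IL-2 and without IL-2, with black bars for the medians. The medians of the mitochondrial ribosomal proteins are -0.96 with and 0.08 without IL-2, those of the mitochondrially encoded mRNAs -1.76 and -1.70, and those of the cytosolic ribosomal proteins 0.32 and 0.43.

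Of 9 tested regulators of mitochondrial gene programs, 5 were lower and 1 higher at pH 6.6 with IL-2 (median -0.19), against 40.9% of all genes lower and 35.4% higher. Myc, a transcription factor of growth and ribosome production, was at 160.0 ± 14.4 CPM at pH 7.4 and 54.8 ± 10.4 CPM at pH 6.6 with IL-2, against 16.2 ± 3.36 CPM at pH 7.4 without IL-2 (SD, n = 5). Its log2 fold change at pH 6.6 was -1.55 (standard error 0.11, adjusted p = 6.35e-14) with IL-2 and 0.69 (standard error 0.12) without. Pprc1, a coactivator of mitochondrial genes, showed the same order (134 ± 12.2, 35.4 ± 9.10 and 13.8 ± 1.74 CPM, SD, n = 5), while Yy1 was slightly higher at pH 6.6 with IL-2 (0.38, standard error 0.11). Whether these regulators had a part in the levels of the members was not tested. The 12 other mitochondrial proteins taken as a reference (porins and import proteins of the outer membrane, inner membrane organizers and matrix proteins) all fell at pH 6.6 with IL-2 (median -0.86). The falls were led by the inner membrane protein Phb (-2.37, standard error 0.12), Tomm40 (-2.32, standard error 0.13) and Hspd1 (-2.29, standard error 0.10). All 12 were higher with IL-2 than without it at pH 7.4 (median 1.13), against 39.3% of all genes.

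Mrpl53 was the member that did not pass the filter on low counts. It was at 0 in 34 of 35 libraries and at 0.0416 CPM in the other, and 88.0% of its exon bases lie in Gm42688 on the same strand, with 18% unique windows, so its level is not known from these counts.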

How the data were processed

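RNA of OT-I CTLs was sequenced as single reads from stranded mRNA libraries, in 35 libraries of 7 groups and 5 biological replicates. The authors deposited, per library, raw counts of reads on 48709 genes; the submitters' processing notes name cutadapt 1.8, STAR 2.5.2b, HTSeq 0.6.1 and GRCm38. The strand setting of the counting is not given in the sources used here. Rows naming no gene entered neither library sizes nor tests: they held reads aligned to several places (32.8% to 48.3% of all reads in a file), outside genes (2.58% to 11.1%) or on several genes (0.871% to 0.997%).

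Symbols, which 48349 identifiers matched, coordinates and exon overlaps came from GENCODE M21, and promoter windows from RefSeq. With a fragment length of 50 bases chosen here, the share of each gene's windows absent from transcripts of all other genes was calculated. Libraries of 1 group differed by at least 6.65 in chi-square per degree of freedom over 70 pairs, so none was a duplicate.

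In R 4.3.3, edgeR 4.0.16 kept 13819 genes (filterByExpr, minimum count 10), normalized them by TMM and fitted a robust quasi-likelihood model over the 35 libraries with terms for the groups and, as a block, for the replicate numbers. Benjamini-Hochberg adjustment covered all genes of a comparison, with a threshold of 0.05. Standard errors are the log2 fold change divided by the root of F. The pairing was checked from deviations from group means: same-numbered libraries correlated by more than 0.1 in 5 of 5 pairs for pH 6.6 against pH 7.4, under IL-2 (0.198 to 0.416) and in its absence (0.165 to 0.494), with exceptions for IL-2 at pH 7 (4 of 5) and against 0 h (3 of 5 at pH 7.4 without IL-2, 4 of 5 at pH 6.6 with IL-2). In counts simulated for pH 6.6 against pH 7.4 with IL-2, 12893 genes were tested and 200 changed, of which 181 were called, with 4 false calls. Of those changed by at least 1 on the log2 scale 132 of 136 were called, and of those changed by 0.5, 49 of 64. The simulation held no effect of replicates and changed far fewer genes than the 76.3% called in the data, so its rate of false calls does not carry over. Confidence intervals are at 95%.

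The members and gene lists were chosen with earlier results of these data known, and the lists were written from general knowledge, where 1 symbol (Mtres1) matched no gene. The naming rule took, where the mean log2 CPM was 3 or more and 5 of 5 pairs shared the sign, the 6 largest falls and up to 6 rises at pH 6.6 with IL-2, the 4 largest each way without IL-2 and the 4 largest rises with IL-2 at pH 7.4, and further the 6 smallest changes (same CPM minimum), the 3 highest and 3 lowest levels per kb, the Mrps18 paralogs, up to 6 members called against the members' median, untested members, and up to 3 genes per list with Myc. Alternatives were RLE normalization, no filter, a mean CPM of at least 1, no block, each replicate left out, only the groups compared, DESeq2 1.42.0 and a minimum log2 fold change of 1 in either direction. Leaving out the 0 h library of replicate 5 was chosen after seeing the data.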

Additional observations from a re-analysis of the deposited data

Results flagged for a closer look

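Of 168 groups of 5 libraries examined for the 24 named members, 9 had a library far from the other 4 by Dixon's criterion at 0.71 of the range, where chance gives about 1 in 20. At 0 h, replicate 5 was the highest for Mrpl30 (197 CPM), Mrpl36 (52.3 CPM), Mrpl51 (45.7 CPM) and Mrps18c (44.7 CPM), the library that stood apart. The other highest libraries were those of Mrps35 at pH 7.4 without IL-2 (47.8 CPM, replicate 2), Mrpl10 at pH 6.6 without IL-2 (85.8 CPM, replicate 4) and Mrpl22 at pH 7.4 with IL-2 (18.6 CPM, replicate 5). The lowest were those of Mrps10 at pH 7.4 without IL-2 (8.30 CPM, replicate 3) and Mrps18b at pH 7.4 with IL-2 (26.9 CPM, replicate 1).

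For 71 members, low pH acted differently on cells with and without IL-2 (interaction of pH 6.6 and IL-2, edgeR's quasi-likelihood test, adjusted p below 0.05), 20 of them named. Negative interactions on the log2 scale were those of Mrps28 (-2.76), Mrpl12 (-1.87), Mrpl42 (-1.80), Mrpl51 (-1.61), Mrps18b (-1.60), Mrps10 (-1.47), Mrpl17 (-1.29), Mrps25 (-1.19), Mrps18c (-1.10) and Mrps18a (-1.01). Smaller ones were those of Mrpl22 (-0.85), Mrps2 (-0.83), Mrps31 (-0.70), Mrpl4 (-0.55), Mrpl36 (-0.54), Mrpl44 (-0.54), Mrpl10 (-0.45) and Mrpl48 (-0.32). Positive were those of Mrpl9 (0.74) and Mrpl24 (0.50).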

How the results depend on the processing

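No named result changed direction under any alternative run, and 256 of their values under alternatives stayed on the same side of the threshold. The 8 that lost the call were those of Mrpl32 (0.35 with no filter, 0.36 without the block, 0.29 and 0.40 without replicates 3 and 4; adjusted p from 0.0522 to 0.125) and Mrpl30 (0.21, 0.22, 0.21 and 0.23; adjusted p from 0.0544 to 0.0984). Mrps9 lost its call in the same 4 fits (0.12 to 0.17; adjusted p from 0.0565 to 0.164), which left 1 member higher at pH 6.6 with IL-2, against 4 or 5 in the others. Without the replicate block, the count of members called at pH 6.6 was 65 with IL-2 (1 higher and 64 lower) and 37 without, and at pH 7 with IL-2 it was 29 (0 higher and 29 lower). In the same order, 10083, 8601 and 1660 of all 13819 genes were called. Without the block, no total of members in any comparison moved by over 1.5 times. Requiring a log2 fold change of 1 or more in either direction left 35 members called at pH 6.6 with IL-2, 0 at pH 7 with IL-2, 4 at pH 6.6 without IL-2, 34, 23 and 0 for IL-2 at pH 7.4, pH 7 and pH 6.6, 33 in the interaction, 2 between pH 6.6 with IL-2 and pH 7.4 without it, and, against 0 h, 1 at pH 7.4 with IL-2, 15 at pH 7.4 without it and 12 at pH 6.6 with it. No share of all genes was calculated under this requirement, so these counts cannot show whether the members differ from genes in general. Leaving out a replicate gave 18 to 37 calls at pH 7 with IL-2, 0 to 1 at pH 7 without IL-2 and 7 to 10 for IL-2 at pH 6.6. Over all genes the calls in these fits were 1283 to 2425, 35 to 332 and 2119 to 2630, so the counts moved beyond the members too. The cause was not tested. Fitting only the groups compared gave 1 call at pH 7 without IL-2, as did DESeq2, and 23 for IL-2 at pH 6.6. Over all genes these fits called 942 of 12874, 306 of 13551 and 5369 of 12514. The members' median at pH 6.6 with IL-2 ranged from -0.98 to -0.89, and without IL-2 from 0.03 to 0.12. RLE normalization moved the median of all genes by at most 0.067. Calls for Mrpl23 and Mrps28 rest on few CPM.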
